A study of Mus musculus with 25 samples.

Results

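Genes that act in the early mesoderm and the primitive streak of the mouse embryo, namely Eomes, Lhx1, Mixl1, Mesp1, Gsc, Evx1, Kdr and Cdx2, were followed in embryoid bodies (EBs), aggregates in which mouse embryonic stem cells (mESCs) start to form the lineages of the embryo. The members were the probes of an Illumina Mouse WG-6 array whose symbol in the platform's annotation is 1 of these 8 names. All 8 names had a probe, 12 probes in all among 45281, which cover 19057 genes with a symbol. For each probe the files give a signal, an intensity whose values below 0 show that background had been subtracted, and a detection p-value, which ranks the probe among the negative control probes of the same array. EBs were exposed to a chemical for 48 h after LIF had been withdrawn, and the study asked how this early expression relates to the shape of the neurons that formed later.

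There was 1 array of EBs with 0.1% of the solvent DMSO and 1 array for each of 2 doses of 12 chemicals, 25 arrays in all. Estradiol (E2), dihydrotestosterone (DHT), triiodothyronine (T3), dexamethasone (DEX), the dioxin TCDD and a hydroxylated polychlorinated biphenyl (PCB) were given at 1 and 10 nM, and bisphenol A (BPA) at 1 and 100 pM. The labels spell DHT as dehydrotestosterone and give its lower dose as 1M in a title and as 1 nM in the description. Thalidomide (TMD), permethrin (PMT) and the hedgehog inhibitor cyclopamine (CPM) were given at 0.1 and 10 µM, and the phthalate DEHP and methoprene acid (MPA) at 1 and 100 µM. All EBs came from the mESC line B6G-2, on a C57BL/6 background, which carries GFP and had been grown on mouse fibroblasts that were removed before aggregation. No condition had a replicate array. In the main tests that compare chemicals, the spread is therefore that between the doses of a chemical, pooled over the chemicals. In the tests of dose it is how the dose difference varied between chemicals. Both spreads may be technical. Whether several cultures were pooled for an array is not given in the sources used here.

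In the embryo, Nodal, Wnt and BMP signals set up the primitive streak, where cells leave the epiblast and become mesoderm or definitive endoderm. The T-box factor Eomes acts at the top of this step and switches on Mesp1 in early cardiac mesoderm, while the homeobox factors Mixl1 and Evx1 mark the streak itself. Gsc and Lhx1 belong to the anterior streak and the organizer. Kdr, a receptor for VEGF, marks mesoderm that can form blood and vessels, and Cdx2 patterns the posterior end. Several of these genes also act elsewhere, Lhx1 and Eomes in visceral endoderm, and Eomes and Cdx2 in trophoblast.

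Most of the members were dim in these EBs, and only Eomes and Lhx1 were above background on many arrays. With a detection p under 0.01 taken as detected, Eomes was detected on 24 of the 25 arrays, Lhx1 on 16, Evx1 on 10, Kdr on 8, and Gsc and Cdx2 on 2 each. At a detection p under 0.05, Eomes was detected on 24 arrays, Evx1 on 22, Lhx1 on 20, Cdx2 on 19, Kdr on 12 and Gsc on 9. Mixl1 and Mesp1 were detected on 0 arrays at 0.01. The brighter of the Mixl1 probes had a median signal of 8.79 and a lowest detection p of 0.0192, and Mesp1 a median of 8.40 and a lowest p of 0.0107. A dimmer probe of Kdr had a median signal of -3.51 and a lowest detection p of 0.0641. All values given for Kdr therefore come from its brighter probe alone. Tests were run on the 19140 probes detected on at least 2 arrays, so 6 of the 8 members entered them, and a member could enter through the groups where it was bright. By mean normalized log2 signal Eomes lay above 38.6% of the kept probes, Lhx1 above 29.7%, Evx1 above 18.3%, Cdx2 above 13.8%, Kdr above 12.4% and Gsc above 4.45%. The arrays of DMSO, E2, DHT, T3, DEX and TCDD showed 2 to 5 of the 8 members as detected, and those of the other chemicals 1 to 3.

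**Figure D1:**
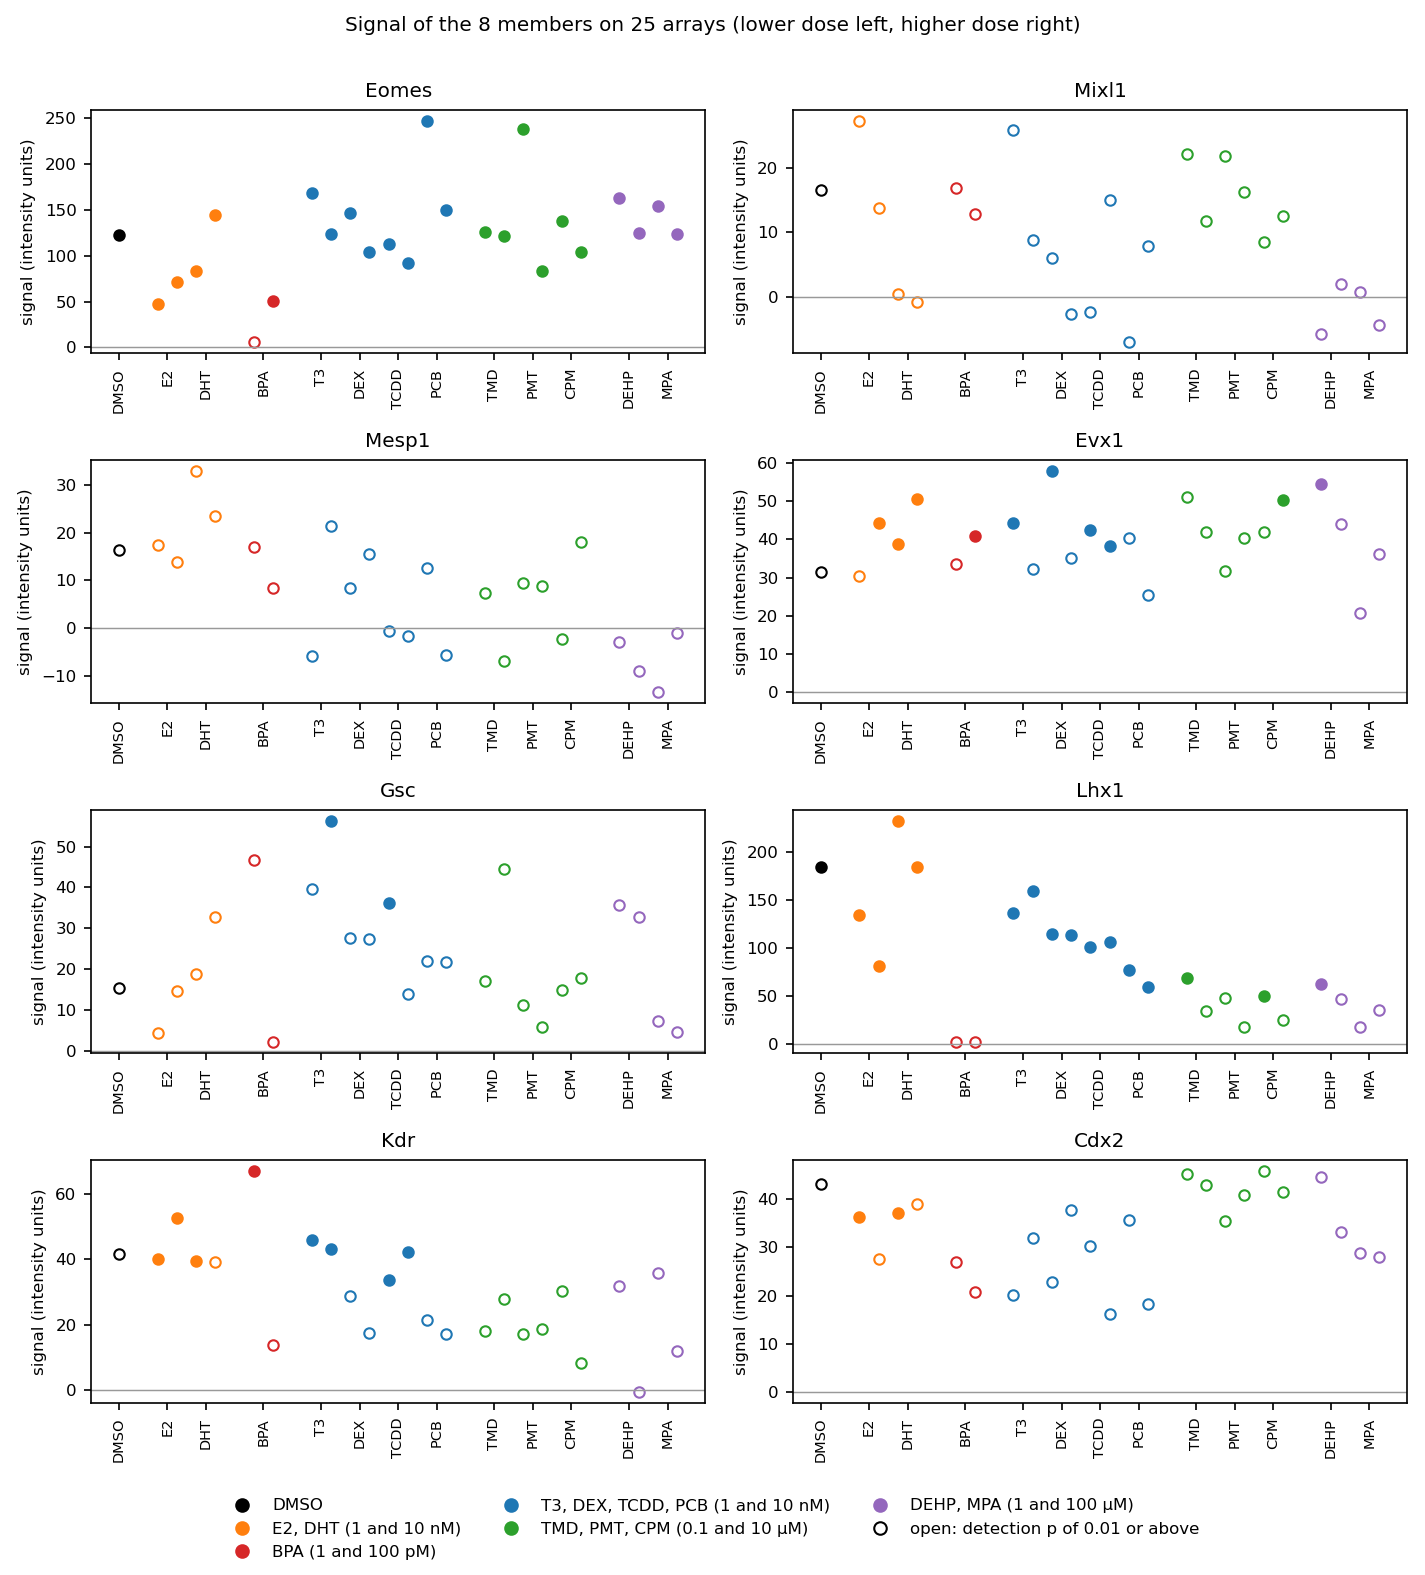
Signal (intensity units) of each of the 8 members on the 25 arrays, in 1 panel per gene, ordered by chemical and then by dose. Filled points have a detection p under 0.01 and open points do not. Lhx1 runs from 232 on the 1 nM array of DHT down to 1.55 on an array of BPA, whereas Mixl1 and Mesp1 have open points only.

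The level at which a probe counts as detected was not the same on all arrays. The lowest signal with a detection p under 0.01 was 29.01 to 45.7 on the 11 arrays of DMSO, E2, DHT, T3, DEX and TCDD, 48.4 to 64.6 on the 12 arrays of PCB and the micromolar chemicals, and 51.1 and 34.4 on those of BPA. This background moved with the groups compared, and its part in the results for Lhx1, Gsc, Evx1, Kdr and Cdx2 was not tested. From 14451 to 16381 probes were detected per array. The cell type label was checked against 12 pluripotency genes, which were detected on every array.

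The promoters of Eomes and Lhx1, on which most results turn, are shown with that of Mesp1, a known target of Eomes that was not detected. RefSeq (GRCm38.p6) gave a window of 250 bases before and 50 after the start for 7 of the 8 members. The letters searched for on both strands, in capitals below, were the T-box half-site AGGTGT, the bicoid-type site TAATCC, the homeodomain site TAATTA, the TCF/LEF site CTTTGA and the CCAAT box CCAAT. The windows lie at chr9:118477939-118478238 on the plus strand for Eomes, chr11:84525485-84525784 on the minus strand for Lhx1 and chr7:79793541-79793840 on the minus strand for Mesp1.
Eomes: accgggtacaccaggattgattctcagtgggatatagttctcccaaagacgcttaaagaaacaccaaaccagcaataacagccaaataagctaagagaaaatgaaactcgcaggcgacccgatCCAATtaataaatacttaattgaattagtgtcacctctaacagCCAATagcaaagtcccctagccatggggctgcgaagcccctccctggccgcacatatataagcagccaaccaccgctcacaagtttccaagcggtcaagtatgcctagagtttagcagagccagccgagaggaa
Lhx1: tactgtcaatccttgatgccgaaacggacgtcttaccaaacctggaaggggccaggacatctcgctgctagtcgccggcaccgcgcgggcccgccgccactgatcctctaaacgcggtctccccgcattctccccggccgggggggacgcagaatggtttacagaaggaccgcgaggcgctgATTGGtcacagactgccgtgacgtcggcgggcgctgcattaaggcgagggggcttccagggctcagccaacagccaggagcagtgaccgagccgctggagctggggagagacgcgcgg
Mesp1: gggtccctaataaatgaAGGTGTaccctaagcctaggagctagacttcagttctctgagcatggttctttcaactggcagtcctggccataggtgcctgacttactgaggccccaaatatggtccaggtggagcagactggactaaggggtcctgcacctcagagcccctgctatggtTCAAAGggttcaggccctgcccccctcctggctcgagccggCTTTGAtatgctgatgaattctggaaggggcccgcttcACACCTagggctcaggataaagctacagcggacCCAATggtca
The Eomes window held 2 CCAAT boxes, and that of Lhx1 held 1 on the opposite strand. A CCAAT box was present in 37.4% of the 32851 windows of the table. The Mesp1 window held 2 T-box half-sites, a motif of 13.7% of all windows, 2 TCF/LEF sites, a motif of 16%, and 1 CCAAT box. Among the other members Evx1 had a T-box half-site and Cdx2 a CCAAT box. No member's window held TAATCC or TAATTA, which are in 7.06% and 5.29% of all windows. A match is a run of letters, not a site shown to be bound.

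Against DMSO, Lhx1 was the member that changed most often. It fell after BPA, PCB, TMD, PMT, CPM, DEHP and MPA, 7 of the 12 chemicals, and was not called after E2, DHT, T3, DEX or TCDD. Eomes fell after BPA, and no other member passed the test for any chemical with DMSO as the reference. With other references more pairs were called, as given at the end. In the table normalized by the authors, only E2, DHT and BPA had column medians like that of DMSO. A like median does not show a shared batch, and no slide is named. The chemical and any batch therefore cannot be told apart against DMSO for any of the 12 chemicals. Over the 72 pairs of a member and a chemical 8 were called (11.1%), where 15.9% of all kept probes were called in the same comparisons, so the members as a set were not called more often than other genes.

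Lhx1 (LIM homeobox 1), which the mouse embryo needs to form a head, had a signal of 184 in DMSO. At the lower and then the higher dose it read 135 and 81.5 for E2 and 232 and 184 for DHT. It read 136 and 160 for T3, 114 and 113 for DEX, and 100.3 and 106 for TCDD. These 11 arrays, at 81.5 to 232, were all above the other 14. With PCB the signal was 76.5 and 58.9, and with TMD, PMT and CPM it was 68.7 and 34.3, 47.5 and 17.2, and 49.5 and 24.8. With DEHP it was 62.4 and 46.2, and with MPA 17.5 and 35.5. Among these, only the MPA arrays were brighter at the higher dose. With BPA the Lhx1 signal was 1.87 and 1.55, with detection p-values of 0.394 and 0.389, so that the transcript was not above background at either dose. Lhx1 was detected on both PCB arrays, on 1 of 2 arrays each of TMD, CPM and DEHP, and on 0 of 2 each of BPA, PMT and MPA.

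In limma, Lhx1 was 2.78-fold lower than in DMSO after PCB (log2 difference -1.48, SE 0.34, adjusted p = 0.00201). It was 3.68-fold lower after TMD (adjusted p = 8.94e-05), 4.23-fold lower after CPM (adjusted p = 2.33e-05) and 3.52-fold lower after DEHP (adjusted p = 0.000248), where 1 of the 2 arrays did not detect it. With that array raised to its lowest detected signal these folds were 3.27, 3.45 and 3.24. Where neither array of a chemical detected the probe, a fold is a lower bound, with both arrays raised in this way. Lhx1 was at least 3.49-fold lower after BPA (adjusted p = 1.35e-07), at least 3.50-fold lower after PMT (adjusted p = 6.39e-06) and at least 3.30-fold lower after MPA (adjusted p = 1.01e-05, limma). Both doses lay below DMSO for each of the 7 chemicals, and these bounds and folds give no order among the chemicals. The share of kept probes called lower in these comparisons was 10.3% for BPA, 10.1% for PCB, 14.6% for TMD, 15.8% for PMT, 14.4% for CPM, 11.9% for DEHP and 13.6% for MPA. In EBs, fewer cells that express a gene and less of its RNA per cell cannot be told apart.

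For the other 5 chemicals the differences of Lhx1 from DMSO on the log2 scale were -0.13 for E2, 0.42 for DHT, -0.39 for T3, -0.39 for DEX and -0.30 for TCDD, each with an SE of 0.34 and an adjusted p of 0.555 or more in limma. In the comparisons of E2 and DHT 0% of the kept probes were called, and in those of T3, DEX and TCDD 3.32%, 3.32% and 3.08%. All comparisons share the single DMSO array, which was assumed to vary like the others. A dimmer probe of Lhx1, ILMN_2716543, detected on 4 of the T3, DEX and TCDD arrays, was not called against DMSO for any chemical. It differed from DMSO by -0.67 for BPA and -0.65 for MPA, and by 0.94 for TCDD (adjusted p = 0.139), where the brighter probe differed by -0.30.

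**Figure D2:**
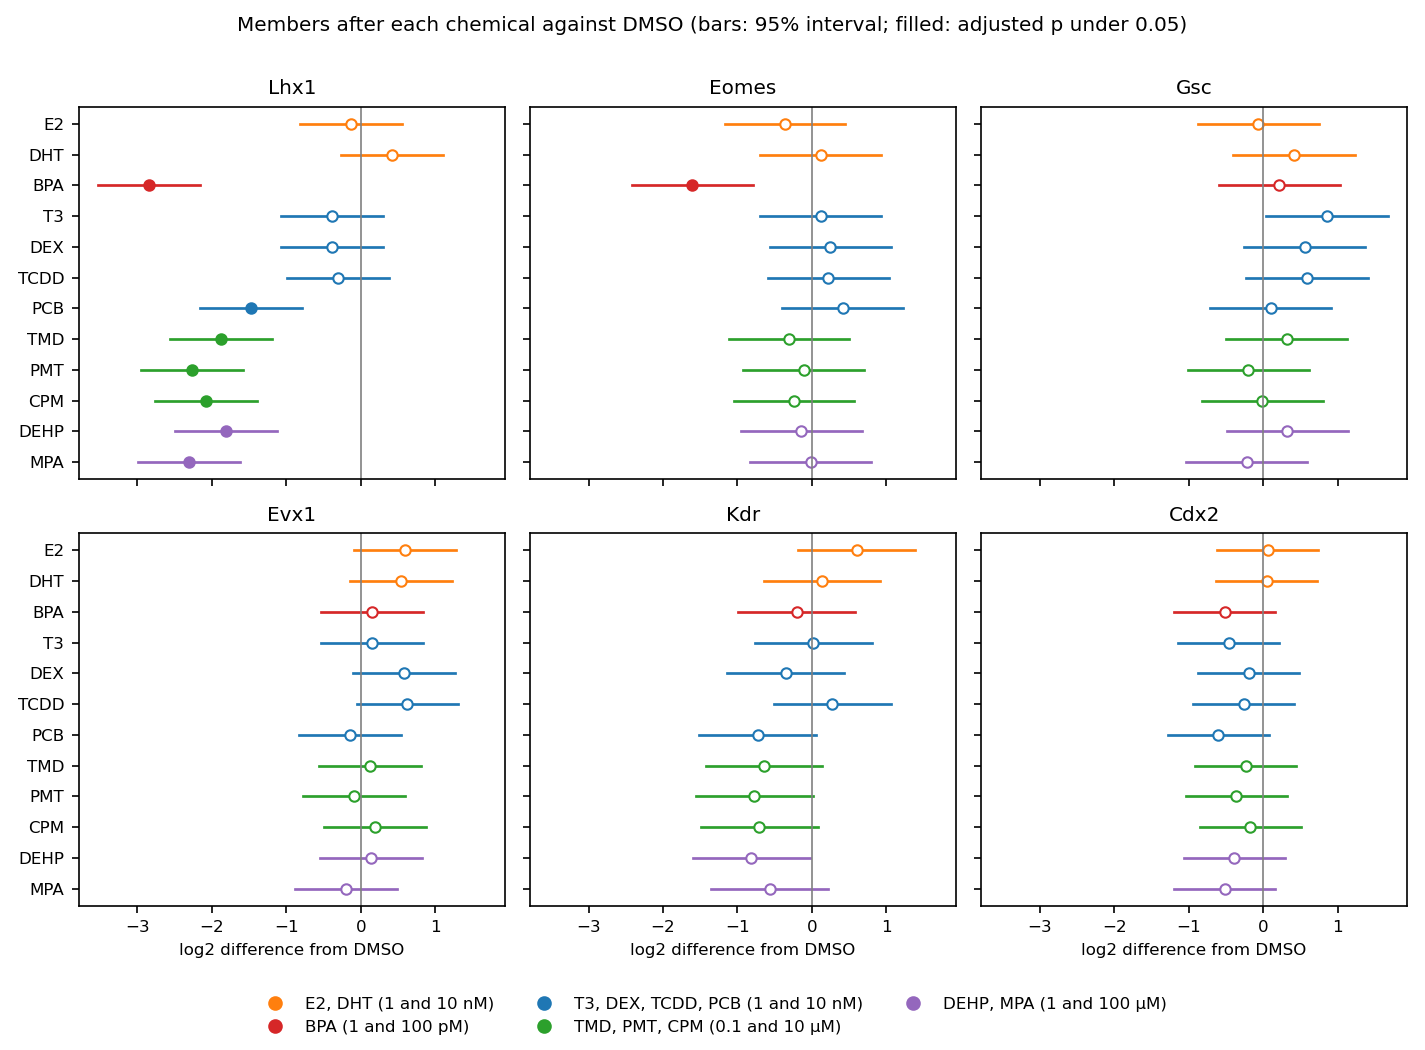
Log2 difference of each chemical (mean of its 2 doses) from the DMSO array for the 6 members with a kept probe, with 95% intervals from limma. Filled points have an adjusted p under 0.05: Lhx1 after 7 chemicals and Eomes after BPA at -1.61. For Lhx1 the fitted points of BPA, PMT and MPA (-2.84, -2.27 and -2.30) rest on arrays that did not detect it, where the bounds are -1.80, -1.81 and -1.72.

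Eomes (eomesodermin) was detected on all arrays but that of 1 pM BPA. It read 123 in DMSO, 47.05 and 71.6 for E2 and 83.4 and 145 for DHT. The 8 arrays of T3, DEX, TCDD and PCB ran from 92.5 through a median of 135 to 247, the 6 of TMD, PMT and CPM from 83.7 through 124 to 238, and the 4 of DEHP and MPA from 124 to 163. The ranges of these micromolar and nanomolar chemicals overlapped. For BPA, Eomes read 5.66 at 1 pM, with a detection p of 0.298, and 50.5 at 100 pM, where it was detected. The 1 pM array lay below the other 24, and the 100 pM array lay between those of E2 in signal but below both after normalization (log2 6.17 against 6.50 and 7.04).

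Against DMSO, Eomes fell after BPA by 1.61 on the log2 scale (3.05-fold, SE 0.40, adjusted p = 0.00411, limma, lower at both doses), or 2.14-fold with the 1 pM array raised to its lowest detected signal. Without the 1 pM array the difference was -0.97 (adjusted p = 0.113), so the call rests on that array. For the other 11 chemicals, differences of Eomes from DMSO ran from -0.36 for E2 to 0.41 for PCB, with adjusted p-values of 0.494 or more. After PCB, Lhx1 differed from DMSO by -1.48 and Eomes by 0.41. A fainter probe of Eomes, detected on 4 arrays, differed by -0.57 after BPA (adjusted p = 0.366, limma).

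The dim members did not pass the test against DMSO for any chemical. Gsc, a transcriptional repressor expressed in the organizer, read 15.3 in DMSO and was brightest after T3, at 39.5 and 56.4. Its differences ran from -0.22 to 0.86, the latter for T3 (SE 0.40, adjusted p = 0.233, limma). Kdr read 41.5 in DMSO and 67.1 and 13.9 after BPA, the first above and the second below most other arrays. Its differences from DMSO were -0.73 for PCB, -0.64, -0.77 and -0.71 for TMD, PMT and CPM, and -0.82 and -0.57 for DEHP and MPA, with 0.122 as the lowest adjusted p. Evx1, a streak factor that acts in posterior mesoderm, read 31.5 in DMSO and 20.8 to 58.0 elsewhere, with differences of -0.20 to 0.63. Cdx2 read 43.1 in DMSO and 16.2 to 45.8 elsewhere, with differences of -0.60 to 0.06.

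Chemicals given over the same range of doses were then set against each other, which takes DMSO out of the comparison. T3, DEX, TCDD and PCB were each compared with the mean of the other three, TMD, PMT and CPM with the mean of the other two, E2 with DHT and DEHP with MPA. Of 54 pairs of a member and a comparison 3 were called (5.56%), where 3.43% of all kept probes were called. All were for PCB, after which Lhx1, Kdr and Evx1 were lower than after T3, DEX and TCDD. In that comparison 28.4% of all kept probes were called, and 13.8% were lower.

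The Lhx1 signals of 76.5 and 58.9 after PCB lay below those of all 6 arrays of T3, DEX and TCDD, which ran from 100.3 through 114 to 160. The log2 difference of Lhx1 was -1.12, or 2.17-fold lower (SE 0.22, adjusted p = 0.000351, limma). The fainter Lhx1 probe differed by -0.91, but passed the filter only through arrays of T3, DEX and TCDD. Kdr read 21.6 and 17.1 after PCB and 17.4 through 37.8 to 45.8 on the other arrays, so that the signals overlapped while the normalized values did not. Its difference was -0.71 (adjusted p = 0.0376, limma), with Kdr detected on neither PCB array and no fold to be given. Evx1 read 40.3 and 25.5 after PCB and 32.4 through 40.3 to 58.0 on the other arrays, and differed by -0.60 (adjusted p = 0.0424), which is at least 1.12-fold. Without a filter on dim probes Kdr and Evx1 no longer passed (adjusted p = 0.0827 and 0.101, limma), nor did they when any of several arrays was left out. Gsc differed by -0.57 (adjusted p = 0.11), Cdx2 by -0.30 and Eomes by 0.22, and these did not pass.

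No member was called among TMD, PMT and CPM. Lhx1 differed from the mean of the other two chemicals by 0.29 for TMD (95% interval -0.19 to 0.78), -0.29 for PMT (-0.77 to 0.20) and -0.01 for CPM (-0.49 to 0.48). Of all kept probes 0.00522% were called for TMD and 0% for PMT and CPM. DEHP minus MPA was 0.49 for Lhx1 (-0.07 to 1.04) and 0.54 for Gsc (-0.12 to 1.21), and E2 minus DHT was -0.55 for Lhx1 (-1.11 to 0.01), with 0% of the kept probes called in either. Kdr was 0.63 above the mean of T3, DEX and PCB after TCDD (0.11 to 1.15), which was not called over all probes (adjusted p = 0.208, limma, 1.97% of probes called). For T3 and DEX, with 0% and 0.517% of probes called, no member was called.

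The sets of chemicals were also compared as a whole, although chemical, dose range and any batch cannot be told apart there. The SEs and p-values of these comparisons measure the spread between doses and leave out that between the chemicals of a set. Of 24 pairs 9 were called (37.5%), beside 38.5% of all kept probes, a share so near the background that it says nothing particular about these genes. The mean log2 signal of Lhx1 was 7.81 over E2 and DHT, 7.02 over T3, DEX, TCDD and PCB, 5.58 over TMD, PMT and CPM, 5.60 over DEHP and MPA and 4.82 over BPA. Against T3, DEX, TCDD and PCB, Lhx1 differed by -1.44 after TMD, PMT and CPM (SE 0.15, 2.71-fold lower, adjusted p = 2.41e-09, limma), with 2 of 6 arrays detecting it and a fold of 2.19 with the others raised to their lowest detected signal, and 49.6% of all kept probes were called. After DEHP and MPA it differed from the same reference by -1.42 (SE 0.17, 2.68-fold lower, or 2.10-fold with such arrays raised, adjusted p = 9.19e-08), with 1 of 4 arrays detecting it and 38.6% of probes called. Between the micromolar sets Lhx1 differed by 0.02 (95% interval -0.34 to 0.38, DEHP and MPA minus the others), while 30.4% of all kept probes were called.

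The fainter Lhx1 probe, kept only through arrays of that reference, differed by -0.78 and -0.97 in the same micromolar sets. E2 and DHT were above T3, DEX, TCDD and PCB by 0.79 for the brighter probe (adjusted p = 0.000601, 35.6% of probes called), whereas the fainter probe differed by -0.43. The mean of both probes differed by 0.18 (adjusted p = 0.347), so this call rests on a single probe. By mean log2 signal, the chemicals ran from DHT (8.08) through DMSO (7.66), E2 (7.53), TCDD (7.35), DEX (7.27) and T3 (7.27) to PCB (6.18), DEHP (5.84), TMD (5.78) and CPM (5.58), with PMT (5.39), MPA (5.36) and BPA (4.82) not above background and thus in no order. Among the chemicals detected on both arrays, neighbours in this order differed by more than their own doses did between T3 and PCB.

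In these comparisons of sets, which left out BPA, the other members shifted by less than 1 log2 unit. Against T3, DEX, TCDD and PCB, Kdr differed by -0.51 after TMD, PMT and CPM and by -0.49 after DEHP and MPA (adjusted p = 0.0130 and 0.0412, limma), and by 0.57 after E2 and DHT (adjusted p = 0.0219). Kdr was detected on 0 of the 10 micromolar arrays and on 4 of the 8 of that reference. With the micromolar arrays raised to their lowest detected signal its differences were 0.19 and 0.22, so no fold and no direction can be given there. The calls of Gsc, at -0.49 after TMD, PMT and CPM, and of Cdx2, at 0.44 after E2 and DHT, say nothing of these genes: each was detected on 2 arrays in all, those of the brighter side, and passed the filter through them. Eomes differed by -0.47 after TMD, PMT and CPM (1.38-fold lower, adjusted p = 0.0273) and was detected on all 14 arrays, whose values overlapped. Without both PCB arrays, Kdr after E2 and DHT and Eomes after TMD, PMT and CPM did not pass (adjusted p = 0.160 and 0.0665, limma). Evx1 was not called between any sets.

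No effect of dose on a member was resolved. Across the 6 chemicals given at 1 and 10 nM, and across the 5 given at micromolar doses with a 100-fold step, 0 of 12 pairs of a member and a dose range were called by limma, beside 0% of all kept probes. None of the 12 had an unadjusted p under 0.05 in limma or in the methods' t-test paired by chemical. Lhx1 was lower at the higher dose for 4 of the 6 nanomolar chemicals (mean difference -0.18, 95% interval -0.50 to 0.14) and for 4 of the 5 micromolar ones (-0.24, -0.59 to 0.11). Eomes was also lower at the higher dose for 4 of 6 and 4 of 5 chemicals, with mean differences of -0.09 (-0.42 to 0.23) and -0.31 (-0.67 to 0.05). The widest gap of Eomes among these was that of PMT, from 238 at 0.1 µM to 83.7 at 10 µM. Between the doses of E2, Lhx1 went from 135 to 81.5 and Eomes from 47.05 to 71.6.

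**Figure D3:**
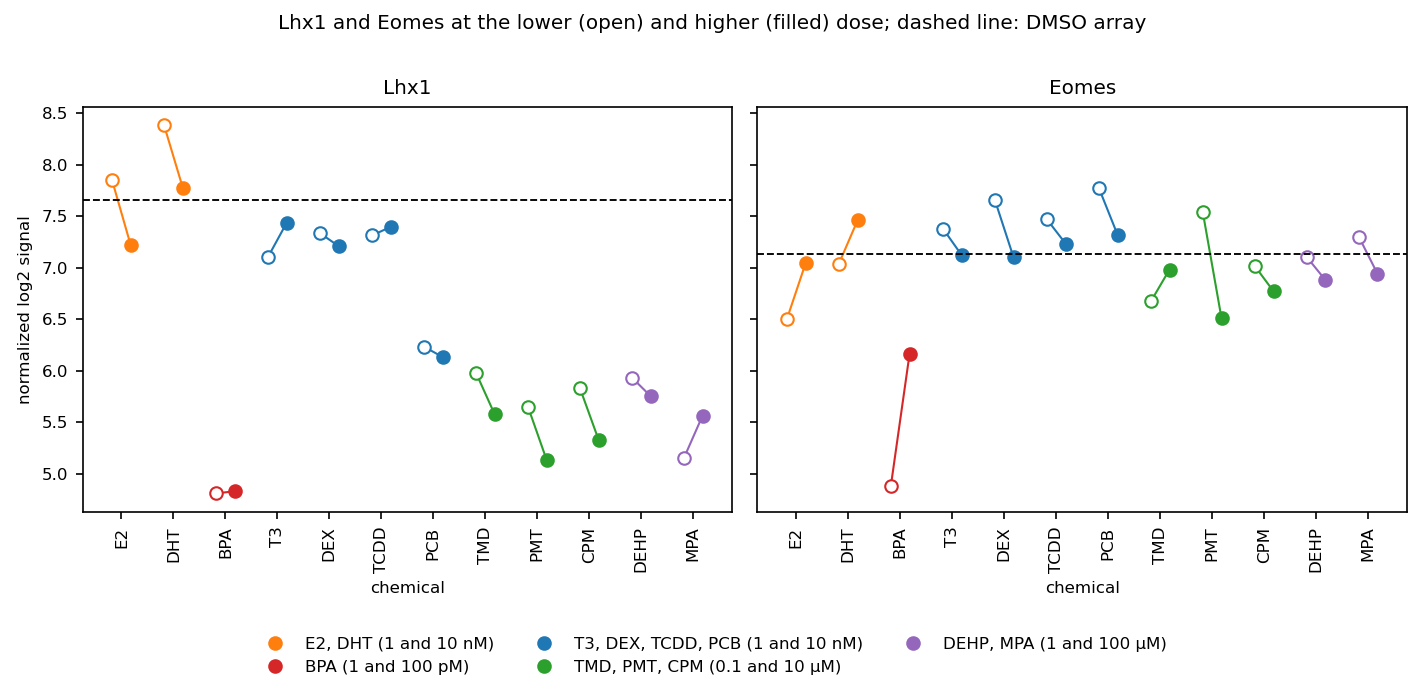
Normalized log2 signal of Lhx1 and Eomes at the lower and the higher dose of each chemical, with the DMSO array for reference. For Lhx1 the arrays fall into an upper band at 7.10 to 8.38 and a lower band at 4.81 to 6.23, and no pair of doses crosses between them. For Eomes the 1 pM array of BPA stands alone at 4.88.

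The wider set of streak and early mesoderm genes moved in mixed directions. Of 42 listed genes 39 had a probe and 24 were kept. T (brachyury) and Msgn1 were among those not analysed here, and Wnt3, Mesp2, Hand1, Foxc1 and Foxc2 were detected on 0 arrays. Against DMSO, the kept genes called higher and lower were 2 and 10 after BPA, 2 and 5 after PCB, 3 and 5 after TMD, 3 and 6 after PMT, 4 and 5 after CPM, 3 and 6 after DEHP and 2 and 5 after MPA. They were 0 and 1 after each of T3, DEX and TCDD and 0 and 0 after E2 and DHT. After BPA the median difference of the list was -0.77, beside 0.05 over all kept probes, and after the other chemicals it ran from -0.32 to 0.01. In either direction 19.9% of all kept probes were called for BPA, 20.8% for PCB, 29.5%, 31.3% and 29.1% for TMD, PMT and CPM, and 23.8% and 26.7% for DEHP and MPA.

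After BPA, the genes called lower included Fst, whose product binds activin (log2 difference from DMSO -2.63), Pdgfra (-2.39), the Nodal co-receptor Tdgf1 (-1.24), Wnt8a (-1.42) and Fgf8 (-1.01). Of the transcription factors in the list, those called lower were Twist1 at -2.37, Lef1 at -2.02, Sp5 at -1.48, Hoxb1 at -1.44 and Snai1, a driver of the epithelial to mesenchymal transition, at -1.25, while Wnt3a (1.17) and the factor Cdx1 (1.14) rose. Nodal (0.25), Bmp4 (-0.66) and Gata4 (-0.75) did not pass. After TMD, PMT and CPM, Pdgfra differed by -2.38, -2.30 and -2.28 and Snai1 by -1.31, -1.02 and -1.40. In the same EBs Cdx1, a relative of Cdx2, was higher by 1.95, 1.54 and 1.75 and Fgf8 by 1.13, 1.497 and 1.44. After PCB, Pdgfra (-1.62), Snai1 (-0.89) and Fst (-1.81) were lower and Cdx1 (1.45) and Tdgf1 (1.44) higher.

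After both DEHP and MPA, Axin2, Sp5, Hoxb1, Wnt8a and Nodal were lower and Fst and Tdgf1 higher. Axin2, a direct Wnt target, differed from DMSO by -1.24 and -1.29, Sp5 by -1.61 and -1.21, Hoxb1 by -1.78 and -1.74, Wnt8a by -0.99 and -1.09, and Nodal by -0.59 and -0.73. Fst differed by 1.88 and 1.95 and Tdgf1 by 0.90 and 1.18. After T3, DEX and TCDD the gene called was Twist1, at -1.31, -1.06 and -1.53. The adjusted p-values of the list genes given as changed were 0.0462, that of Cdx1 after BPA, or less in limma. Pdgfra is also a marker of primitive endoderm, and Gata4 stood both in this list and in that of endoderm markers.

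Markers of primitive and visceral endoderm, where Lhx1 is also expressed in the embryo, were measured beside it. Of 15 listed genes 13 were kept. Their normalized signals, which hold the offset of the background correction, were summed on the linear scale. The sum was 6085 and 6113 after BPA, 20295 and 20569 after PCB, 16105 to 19418 after TMD, PMT and CPM, 46327 in DMSO, 46097 to 49480 after E2 and DHT and 50942 to 57902 after T3, DEX and TCDD. After DEHP and MPA it was 59932 to 78019, above all other arrays. Against DMSO, 12 of the 13 genes were lower after BPA, 8 after PCB, 10 after each of TMD and PMT and 9 after CPM, whereas 5 were higher after DEHP and 8 after MPA. Low Lhx1 thus went with low endoderm transcripts after BPA, PCB, TMD, PMT and CPM, and with high ones after DEHP and MPA. The part of endoderm cells in the Lhx1 differences was not tested.

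**Figure D4:**
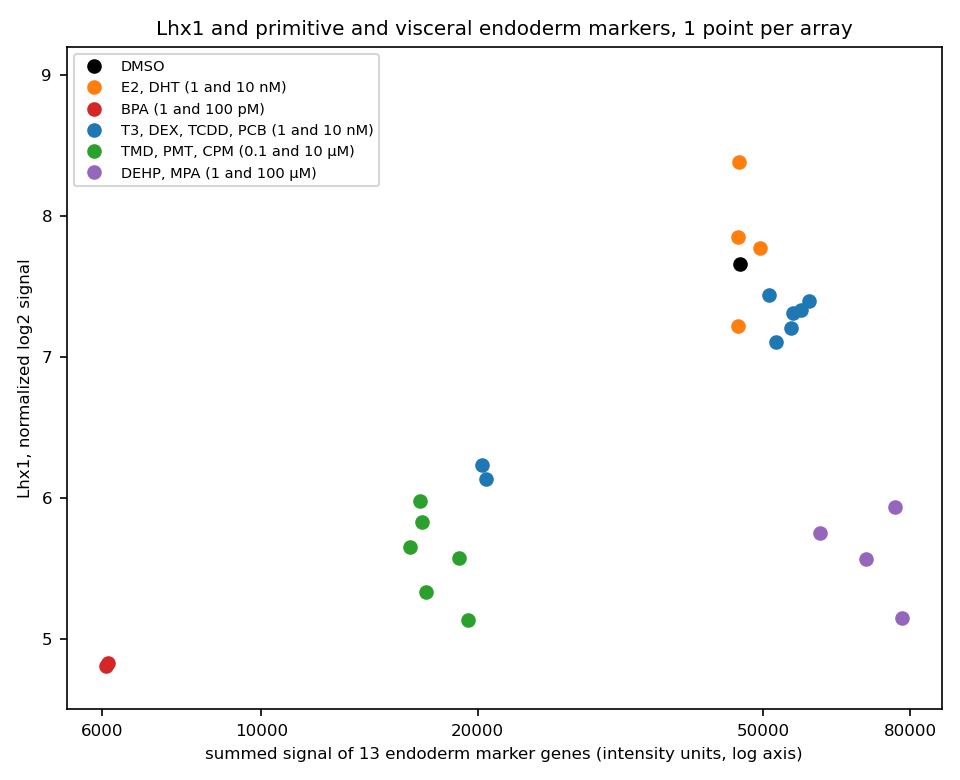
Normalized log2 signal of Lhx1 against the summed normalized signal of 13 primitive and visceral endoderm marker genes (log axis), 1 point per array, with the sets of chemicals marked. The 4 arrays of DEHP and MPA lie at the right, at 59932 to 78019, with Lhx1 at 5.15 to 5.93, while the DMSO array lies at 46327 with Lhx1 at 7.66.

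Other marker lists were read in the same way. Of all kept probes, 19.9% were called in either direction for BPA and 20.8% for PCB. For TMD, PMT and CPM 29.5%, 31.3% and 29.1% were called, and for DEHP and MPA 23.8% and 26.7%. The shares were 3.32%, 3.32% and 3.08% for T3, DEX and TCDD. A count near these shares says nothing particular about a cell type. Markers of fibroblasts, on which the mESCs had been grown, summed to 489 to 598 after TMD, PMT and CPM, 775 to 893 after DEHP and MPA, 777 to 1211 after T3, DEX, TCDD and PCB, 1310 in DMSO, 1056 to 1315 after E2 and DHT and 1434 to 1571 after BPA. Of 7 kept fibroblast genes, 5, 6 and 6 were lower than DMSO after TMD, PMT and CPM. After PCB, DEHP and MPA 2, 2 and 3 were lower, and after BPA 1 was higher and 1 lower. Of 9 kept genes of trophoblast, which expresses Eomes and Cdx2, 3 were lower and 1 higher after BPA, and 4, 4 and 5 were lower after TMD, PMT and CPM. After PCB 3 and after TCDD 1 were lower, and 2 were higher and 2 lower after each of DEHP and MPA. Of 7 kept genes of blood and endothelial precursors, which express Kdr, 2 were higher and 2 lower after BPA, 1 higher and 2 lower after PCB, and 2, 3 and 2 lower after TMD, PMT and CPM. After each of DEHP and MPA 1 was lower. Of 11 kept genes of definitive endoderm and node, 4 were lower after BPA, 3 after PCB and 3, 2 and 4 after TMD, PMT and CPM. After DEHP 4 were higher and 4 lower, and after MPA 3 and 3. Of 6 kept primed epiblast genes, 4 were lower after BPA and 4 higher after each of DEHP and MPA. After each of TMD and CPM 3 were higher and 1 lower, and after PMT 2 and 1. After each of PCB and DEX 2 were higher, and after TCDD 1. Of 12 pluripotency genes, 6 were higher and 1 lower after BPA, 3 higher after PCB, 4 higher and 1 lower after TMD, 5 and 2 after PMT, 4 and 0 after CPM, and 1 higher and 4 lower after each of DEHP and MPA. After T3 2 were higher, and after TCDD 1. Of 4 kept early neural genes 1 was higher after BPA. The part of these cell types in the results for the members was not tested.

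As a description over the 25 arrays, which share a cell line and the sets of chemicals above, the genes whose log2 signal ran most like that of Lhx1 were Fgf10, a fibroblast growth factor (Pearson r = 0.948), Plekha2, an adaptor that binds phosphoinositides (r = 0.946), and Slc46a3, a lysosomal transporter (r = 0.937). With the mean of each set removed, r was 0.672, 0.769 and 0.727. For Eomes they were Slc2a1, the glucose transporter GLUT1 (r = 0.825), Egln3, a prolyl hydroxylase (r = 0.783), and Tapbpl (r = 0.778). With the mean of each set removed these were 0.323, 0.0915 and 0.469, and without the BPA arrays 0.510, 0.457 and 0.577. Lhx1 and Eomes had r = 0.451 with each other, and -0.106 with the mean of each set removed.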

How the data were processed

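Total RNA of EBs on 25 arrays, 1 per condition, was analysed. An intensity (background-subtracted, by software not given in the sources used here) and a detection p-value per probe were deposited by the authors in a table without normalization. A second deposited table, of intensity on a linear scale, had been normalized by the authors in GeneSpring (column medians 11.5 to 11.6 for DMSO, E2, DHT and BPA and 13.5 to 13.6 for the others) and served as an alternative; its centring is not known. The first table was corrected with nec in limma 3.58.1 (R 4.3.3, offset 16), followed by quantile normalization over all arrays and log2.

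A probe had to be detected (p under 0.01) on 2 or more arrays, and the brightest such probe stood for a gene. The model had a mean for each chemical, over its 2 arrays, and for DMSO (lmFit, eBayes with trend, 12 residual degrees of freedom). Doses were fitted with chemical as a term, without BPA. Two-sided p-values were adjusted by Benjamini-Hochberg over all 19140 kept probes, with a threshold of 0.05. The fits were tested on simulated data. Every member was described. List genes were given by counts, with values of those that passed, and likeness was computed for members detected on at least 12 arrays. The members and lists were chosen with earlier results of these data known. Alternatives were another background floor, scaling, filter, variance trend, probe rule, reference, table and test, and leaving out arrays. Of all probes 34885 had 1 symbol, 18 several and 10378 none. The methods state triplicate experiments, while the labels give 1 array per condition, and the number of arrays limits the precision.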

Additional observations from a re-analysis of the deposited data

Results flagged for a closer look

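Gsc on the 10 µM array of TMD stood apart from the other 5 arrays of TMD, PMT and CPM, with a normalized log2 signal of 5.82 and the nearest at 5.16. The gap was 0.710 of the range, above Dixon's critical value of 0.625 for 6 arrays. Its signal was 44.4 with a detection p of 0.0171, so Gsc was not detected there at 0.01. It was 1 of 24 groups tested, of which chance marks about 1 in 20. For the 6 members, the effect of the dose was not called as different between the micromolar and nanomolar chemicals (adjusted p = 0.998 in limma).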

How the results depend on the processing

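No called result for a member changed direction under the alternatives named above. The bounds, with undetected arrays of the dimmer side raised to their lowest detected signal, are apart from these. There the log2 difference of Kdr after PCB within its dose range turned from negative to positive (0.04). Between sets, so did those of Kdr after TMD, PMT and CPM (0.19) and after DEHP and MPA (0.22), and of Gsc after TMD, PMT and CPM (0.23). Against DMSO 8 pairs were called, 16 with the mean of DMSO, E2 and DHT as the reference and 13 with the mean of the other 11 chemicals, where Lhx1 after PCB differed by -0.21 (adjusted p = 0.517, limma). The share of all kept probes called with these other references is not given here, so 16 and 13 cannot be read as a result about the members. With DMSO as the reference, leaving out 1 array gave 7 to 8, and leaving out both BPA arrays, chosen after seeing the data, 6. That last fit has no comparison of BPA, which held 2 of the 8 calls, so those could not appear in it. The DMSO array cannot be left out of the comparisons with DMSO. Within a dose range 3 pairs were called, 1 without a filter on dim probes, 1 by the methods' t-test after Benjamini-Hochberg adjustment (4 before it), and 1 to 3 when 1 array was left out: 1 without the 1 nM array of T3 or DEX, the 10 nM array of TCDD or either PCB array. Lhx1 after PCB was called in all of these. Between sets 9 pairs were called, 6 to 10 with 1 array left out and 9, of which 6 were the same, without both PCB arrays, also chosen after seeing the data. The other alternatives gave 7 to 10, and the table normalized by the authors, which allowed 18 of the 24 pairs, gave 5 where 6 had been called. Doses gave 0 throughout. Lhx1 was called against DMSO for all 7 chemicals in the 24 fits without 1 array. Between sets, Eomes and Kdr lost calls in some of these fits, with adjusted p-values up to 0.179 and 0.243. Detection on all 25 arrays left no member to test, and slide was not run as a block because no slide is named. For the comparisons of chemicals no paired analysis was possible because the labels number no replicates; the doses were paired by chemical in every fit of the dose. Signal over background limits Gsc, Evx1, Kdr and Cdx2, and also Lhx1 on the arrays that did not detect it.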
